A study of Mus musculus with 36 samples.

Results

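The nuclear genes of the mitochondrial respiratory chain were described in 36 mammary tumors of mice: 84 of the 12394 genes measured on the arrays carried a symbol that begins with Ndufa, Ndufb, Ndufc, Ndufs, Ndufv, Uqcr, Cox4, Cox5, Cox6, Cox7, Cox8 or Atp5, or that is Sdha, Sdhb, Sdhc or Sdhd. The rule read names and no measured value. It took 33 subunits of complex I (6 core and 27 accessory), 4 of complex II, 8 of complex III, 10 broadly expressed subunits of complex IV, 3 complex IV forms of muscle (Cox6a2, Cox7a1 and Cox8b, kept apart from the other 81), 3 other complex IV forms of restricted tissues (Cox4i2, Cox6b2 and Cox8c) and 17 subunits of complex V. The names also took 5 complex I assembly factors (the Ndufaf genes), which are not part of the finished chain, and Cox7a2l, which joins complexes III and IV into supercomplexes.

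The respiratory chain sits in the inner mitochondrial membrane. Complexes I and II feed electrons from NADH and succinate into ubiquinone, complex III passes them on to cytochrome c and complex IV to oxygen, and the proton gradient built on the way drives ATP synthesis by complex V. Every complex but complex II also holds subunits encoded in mitochondrial DNA, and for several complex IV subunits there is a second nuclear gene that heart and skeletal muscle use in place of the broadly expressed one.

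The tumors came from 67NR and 66cl4, mouse mammary carcinoma lines transduced with pSIREN-RetroQ retroviruses for a control shRNA or for an shRNA against Bptf (BPTF KD), BPTF being the largest subunit of the NURF chromatin remodeling complex. Female mice of 6 to 8 weeks received 100000 67NR or 10000 66cl4 cells in the fourth mammary fat pad, and the tumors were taken at day 21 for 67NR and at day 28 for 66cl4, so that line, cell number and day cannot be told apart. Hosts were BALB/c mice, or NSG mice, which carry the NOD and SCID backgrounds with a null Il2rg and have no T, B or NK cells. Each of the 8 groups of line, host and label held 3 control or 6 BPTF KD tumors, and p-values measure the spread between tumors and not between independently made knockdown lines. Which of the pair of hairpins of each kind a tumor carried was not used here.

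Levels are given on the log2 scale as deposited, each gene from its brightest probe set, and they are not compared between genes. Arrays had medians from 7.03 to 7.21, and correlations between them from 0.903 to 0.9957. Bptf itself was read first as a check of the labels. Its level in 66cl4 BALB/c was 9.50 to 10.61 in controls and 8.68 to 9.12 in BPTF KD tumors, a difference of -1.08 (adjusted p = 0.0628). It differed by -0.27 in 67NR NSG (adjusted p = 0.644) and by -0.33 in 66cl4 NSG (adjusted p = 0.584). In 67NR BALB/c the tumors labelled BPTF KD spanned 8.34 to 10.68, around the controls at 9.73 to 10.31 (difference -0.05, adjusted p = 0.985), so that this probe set does not bear out the label there. Of the other 3 probe sets of Bptf, 2 had a lower mean in BPTF KD tumors in all 4 pairs of line and host. In 67NR BALB/c they read 9.02 ± 0.35 and 6.09 ± 0.21 in controls (SD, n = 3) against 8.76 ± 1.33 and 5.47 ± 0.84 in BPTF KD tumors (SD, n = 6), with overlap, and in 67NR NSG 8.99 ± 0.45 and 6.17 ± 0.75 against 8.23 ± 0.74 and 5.39 ± 0.62. The last probe set was lower in 66cl4 BALB/c alone (6.80 ± 0.22 against 6.66 ± 0.10). These 3 were not tested. Directions below follow the labels.

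The promoters of the muscle forms and of their broadly expressed partners are shown because the muscle forms were the most variable members in these tumors and so that they can be set beside those of their partners. The stretches are the 180 bases before the annotated start in RefSeq (GRCm38.p6), 5′ to 3′ on the strand of the gene: Cox7a1 chr7:30183991-30184170 (+), Cox8b chr7:140900447-140900626 (-), Cox6a1 chr5:115348959-115349138 (-), Cox7a2 chr9:79759854-79760033 (-) and Cox8a chr19:7217617-7217796 (-). Capitals mark matches to the core of the NRF1 site (GCGCANGCG), the ETS core (CCGGAAG) or the E-box of muscle regulators (CAGCTG), on either strand. Cox6a2 has no entry.
Cox7a1: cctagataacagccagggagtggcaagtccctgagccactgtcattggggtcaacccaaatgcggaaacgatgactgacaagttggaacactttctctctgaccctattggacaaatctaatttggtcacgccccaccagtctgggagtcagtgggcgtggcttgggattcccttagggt
Cox8b: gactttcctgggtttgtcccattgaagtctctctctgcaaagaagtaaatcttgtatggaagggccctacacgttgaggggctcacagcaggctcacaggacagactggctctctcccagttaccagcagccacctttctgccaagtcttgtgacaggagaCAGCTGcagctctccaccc
Cox6a1: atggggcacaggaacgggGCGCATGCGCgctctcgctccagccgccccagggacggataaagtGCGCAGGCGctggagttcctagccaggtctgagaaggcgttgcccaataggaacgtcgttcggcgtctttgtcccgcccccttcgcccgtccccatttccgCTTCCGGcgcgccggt
Cox7a2: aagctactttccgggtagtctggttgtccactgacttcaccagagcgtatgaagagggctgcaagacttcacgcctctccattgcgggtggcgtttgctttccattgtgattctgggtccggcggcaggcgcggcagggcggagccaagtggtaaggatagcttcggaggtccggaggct
Cox8a: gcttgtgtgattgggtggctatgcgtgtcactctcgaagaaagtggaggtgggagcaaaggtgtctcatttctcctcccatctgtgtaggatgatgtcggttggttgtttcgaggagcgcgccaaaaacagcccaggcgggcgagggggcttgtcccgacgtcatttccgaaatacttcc

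The 180 bases of Cox6a1 held NRF1 cores and an ETS core on the opposite strand, those of Cox8b held an E-box, and the other stretches held none of these letters. GC content was 52.8% and 53.9% for Cox7a1 and Cox8b against 67.2%, 58.9% and 55.0% for Cox6a1, Cox7a2 and Cox8a, with 4 and 1 CG pairs against 22, 12 and 11. Over all members, 75 promoters of 70 genes were found, and 250 bases upstream of each were searched. The NRF1 core stood in 13 of 75 (17.3%), against 5.16% of all 32851 promoters, and the ETS core in 13 (17.3%), against 6.91%. The E-box stood in 6 of 75 (against 13.0%) and a TATA box (TATAAA) in 7 (9.33%, against 12.4%). The stretches of Atp5h, Atp5l, Cox6a1 and Sdhd held both an NRF1 and an ETS core. Member promoters were also richer in GC (median 57.6%, against 52.4% of all promoters) and in CG pairs (median 15, against 6). The NRF1 and ETS cores hold a CG pair, while the E-box and the TATA box do not. The shares were not matched for base composition. A match of letters describes the sequence and does not show a bound site.

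By median SD, respiratory chain genes varied slightly less than all genes. The median SD over the 36 tumors was 0.25 for members and 0.31 for all genes, and within groups 0.21 and 0.23. Members were also brighter (median level 12.09, against 7.65), and the SDs were not matched for level. The steadiest members were Atp5g3 (membrane ring of ATP synthase), Uqcrfs1 (complex III) and Atp5c1 (central stalk of ATP synthase). Their levels ran over 0.42, 0.45 and 0.47 log2 units in all 36 tumors. The muscle forms were the most variable, with a range of 4.46 for Cox8b, 3.96 for Cox6a2 and 3.14 for Cox7a1. Cox4i2, a form of lung and of low oxygen, Cox6b2 and Cox8c, both known from testis, read 5.50 to 6.27, 5.25 to 6.15 and 6.95 to 7.71 over the 36 tumors.

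Cox6a2, the muscle and heart form of subunit VIa, was low in nearly all tumors but those of 66cl4 in BALB/c. Controls read 6.69, 7.18 and 6.40 in 67NR BALB/c, 6.53, 6.40 and 6.75 in 67NR NSG, 7.56, 8.57 and 7.23 in 66cl4 BALB/c, and 6.32, 6.65 and 6.20 in 66cl4 NSG. BPTF KD tumors of 66cl4 ran from 6.95 to 8.73 (median 8.05) in BALB/c and from 6.32 to 6.83 (median 6.59) in NSG. All 9 BALB/c tumors of 66cl4 were above all 9 NSG tumors of that line, and the host difference was 1.39 ± 0.19 (SE, 9 against 9 tumors), 2.63-fold, with an adjusted p of 5.33e-05. With control tumors alone it was 1.40 (adjusted p = 0.0624). In 67NR BALB/c the tumors labelled BPTF KD read 6.65, 6.84, 10.16, 7.28, 6.74 and 7.18, and those of 67NR NSG ran from 6.33 to 6.86. A single tumor, 67NR BALB/c BPTF KD replicate 3, stood far above the others of its line.

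Cox8b, the muscle form of subunit VIII, followed a like course. Controls of 66cl4 BALB/c were at 8.78, 8.67 and 7.58 and BPTF KD tumors at 6.96 to 10.17 (median 9.04). In 66cl4 NSG controls were at 7.35, 6.94 and 6.04 and BPTF KD tumors at 6.24 to 7.66 (median 6.58). The ranges overlapped, 7 of 9 BALB/c tumors lay above every NSG tumor, and the host difference was 2.02 ± 0.35 (SE), 4.07-fold (adjusted p = 0.000446). With control tumors alone it was 1.57 (adjusted p = 0.0724). Controls of 67NR BALB/c read 6.19, 6.18 and 6.37 and the tumors labelled BPTF KD 8.46, 6.23, 9.99, 6.35, 7.56 and 6.67. In 67NR NSG controls read 6.35, 5.71 and 6.40 and BPTF KD tumors 6.13 to 6.77. Within BALB/c hosts Cox8b was lower in 67NR than in 66cl4 (difference -1.63 ± 0.49 SE) (adjusted p = 0.0179), and the SE is widened by the high tumors of 67NR. Without 67NR BALB/c BPTF KD replicate 3 the line difference was -1.97 (adjusted p = 0.00103), and with the tumors labelled BPTF KD alone -1.40 (adjusted p = 0.199).

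Cox7a1, the muscle form of subunit VIIa, differed by line in both hosts. In BALB/c, 67NR controls read 5.79, 6.06 and 5.90 and 66cl4 controls 7.42, 7.30 and 6.39, and the tumors labelled BPTF KD ran from 5.07 to 8.21 (median 6.12) and from 7.02 to 8.04 (median 7.70). In NSG, 67NR controls read 5.58, 6.02 and 6.16 and 66cl4 controls 7.69, 7.15 and 6.98, with BPTF KD tumors at 5.70 to 6.91 (median 6.19) and 6.55 to 7.34 (median 7.12). 67NR tumors were thus lower with some overlap in both hosts. The difference was -1.28 ± 0.32 (SE) in BALB/c (adjusted p = 0.00533) and -1.02 ± 0.17 in NSG (adjusted p = 4.32e-05). With the tumors labelled BPTF KD alone it was -1.36 in BALB/c (adjusted p = 0.0578). Unlike the other muscle forms, Cox7a1 did not pass the test between hosts in 66cl4, where its difference was 0.29. Whether its host difference departs from theirs was not tested.

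The broadly expressed partners had narrower ranges. Over the 36 tumors Cox6a1 ran from 13.66 to 14.27, Cox7a2 from 13.18 to 14.14 and Cox8a from 11.19 to 12.61. The SD of Cox8a over all tumors was 0.32, above the median of 0.25 for members, and those of Cox6a1 and Cox7a2 were 0.14 and 0.18. Cox6a1 was lower in 67NR than in 66cl4 in NSG (difference -0.25, adjusted p = 0.00242) and higher in BALB/c than in NSG in 67NR (0.23, adjusted p = 0.0283). Cox8a was higher in 67NR in NSG (0.30, adjusted p = 0.00759) and higher in BALB/c in 66cl4 (0.31, adjusted p = 0.0148). Cox6a1 lost the line call with control tumors alone (-0.22, adjusted p = 0.159), and Cox8a with BPTF KD tumors alone (0.28, adjusted p = 0.0772). Both lost the host call with control tumors alone (adjusted p = 0.194 for Cox6a1 and 0.161 for Cox8a). They also lost it with the tumors labelled BPTF KD alone (adjusted p = 0.162 and 0.113). Cox7a2 passed in none of the 4 comparisons of lines and hosts. With BPTF KD none of the 6 genes passed in any line or host. The largest of these differences was 1.30 ± 0.76 (SE) for Cox8b in 67NR BALB/c (adjusted p = 0.694).

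**Figure D1:**
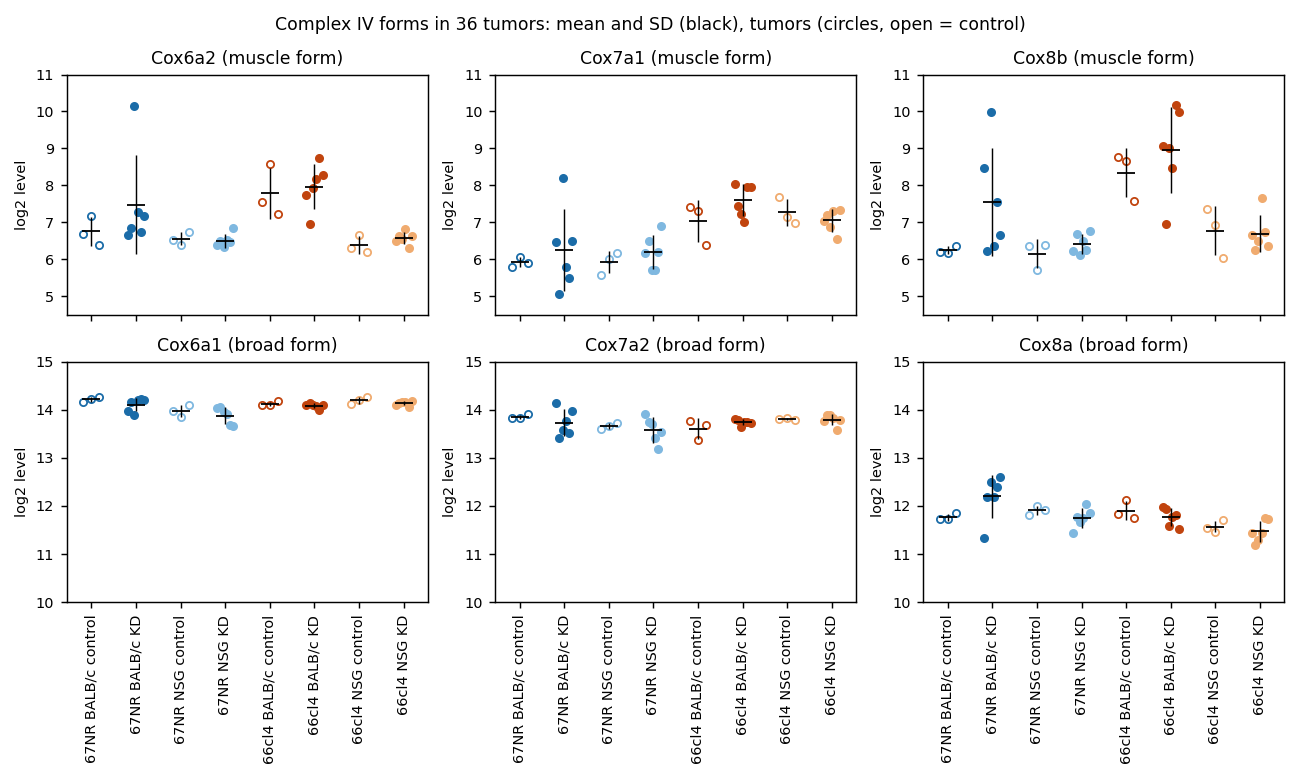
Log2 level of the 3 muscle forms of complex IV and of their broadly expressed partners in 36 tumors, by line, host and label. Circles are tumors, open for controls, and black marks give the mean and SD of each group. Cox6a2 was high in 66cl4 BALB/c and in 1 tumor labelled BPTF KD of 67NR BALB/c (10.16), Cox8b in 66cl4 BALB/c and in 3 such tumors (9.99, 8.46 and 7.56), while Cox6a1 stayed between 13.66 and 14.27 and Cox8a between 11.19 and 12.61.

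Markers of skeletal muscle moved with Cox6a2 and Cox8b. The mean level of 22 muscle markers, among them the muscle actin Acta1 and the creatine kinase Ckm, was 7.91 to 9.91 in 66cl4 BALB/c controls and 6.43 to 10.25 in BPTF KD tumors, 5.35 to 6.86 in all NSG tumors, 10.67 in 67NR BALB/c BPTF KD replicate 3 and 5.52 to 6.89 in the other 67NR BALB/c tumors. Of the 22, 21 were higher in BALB/c than in NSG in 66cl4 (median difference 2.99) and 1 in 67NR, and 16 were lower in 67NR than in 66cl4 in BALB/c. The tissue was bulk tumor from the fat pad, so that fewer cells of a type and less RNA per cell cannot be told apart.

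Within groups, as deviations of the 36 tumors from their group means, Cox6a2 went with the muscle mean at r = 0.92 (rho = 0.75), Cox8b at r = 0.79 (rho = 0.62) and Cox7a1 at r = 0.67 (rho = 0.49). Without 67NR BALB/c BPTF KD replicate 3 these were 0.85, 0.69 and 0.41. The other 81 members ran from -0.50 to 0.54 with a median of -0.06, and all genes from -0.71 to 0.99 with a median of -0.04. These points share 1 array for both values, and 1 tumor carries much of the value for Cox7a1. Cox8b was also raised in 67NR BALB/c BPTF KD replicates 1 and 5 (8.46 and 7.56), where the muscle mean was 5.65 and 5.52 and the mean of 12 adipocyte markers 8.50 and 8.18. Over the 36 tumors Cox8b went with the adipocyte mean within groups at r = 0.36 (rho = 0.41). Ucp1, the defining gene of brown fat, a tissue that uses Cox8b too, stayed at 3.67 to 4.79 in all tumors. The mean of 5 brown fat markers, Ucp1 among them, was 4.66 and 4.96 in replicates 1 and 5. It ran from 4.49 to 4.96 in their group. The part of muscle or fat tissue in the host and line differences of the muscle forms was not tested.

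**Figure D2:**
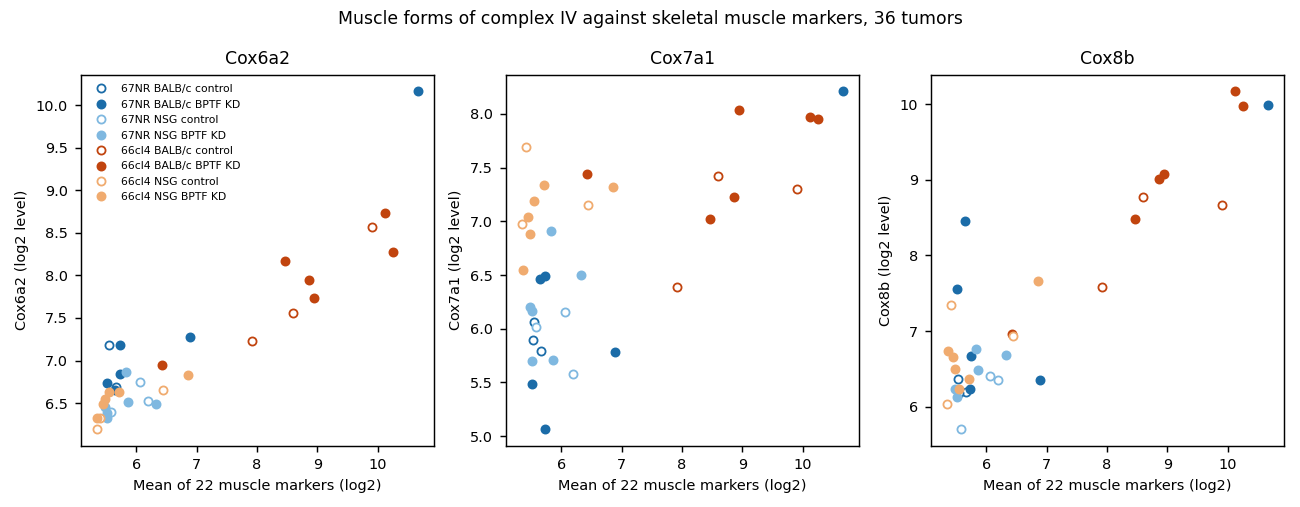
Log2 level of each muscle form (y axis) against the mean log2 level of 22 skeletal muscle markers (x axis) in 36 tumors, colored by line and host. For Cox6a2 the tumors lie along a rising line from NSG tumors at muscle means of 5.35 to 6.86 up to 67NR BALB/c BPTF KD replicate 3 at 10.67, and for Cox8b and Cox7a1 they scatter more.

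The BPTF KD comparison asked whether loss of BPTF in the tumor cells went with a different level of the chain. It called 1 member in 1 of the 4 line and host pairs. In 67NR BALB/c no member and none of the 12394 genes passed (0%), and 1 member had an unadjusted p below 0.05 (1.19%, against 7.75% of all genes). In 66cl4 NSG none passed either (0% of genes), with 2 members below 0.05 unadjusted (2.38%, against 7.68%). In 67NR NSG, 1 of 84 members passed, against 1.14% of genes, and 6 were below 0.05 unadjusted (7.14%, against 14.1%). In 66cl4 BALB/c no member passed, against 0.186% of genes, and 25 were below 0.05 unadjusted, 22 up and 3 down (29.8%, against 25.8%). The share of members was near or under that of all genes in every pair.

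The called member was Ndufs5, an accessory subunit of complex I on the intermembrane side (chr4:123712710-123718186, GRCm38.p6). In 67NR NSG the controls read 10.50, 10.51 and 10.73 and the BPTF KD tumors 9.84, 10.01, 10.03, 10.11, 10.13 and 10.14. The groups did not overlap, and the difference was -0.54 ± 0.11 (SE), with an adjusted p of 0.0410. Elsewhere it differed by 0.13 in 67NR BALB/c, 0.05 in 66cl4 BALB/c and -0.10 in 66cl4 NSG. The difference between hosts in 67NR was 0.67 ± 0.23 (SE, adjusted p = 0.521) and that between lines in NSG -0.44 ± 0.14 (adjusted p = 0.188), so that the fall in 67NR NSG is not shown to depart from the other pairs. The adjusted p of Ndufs5 lay close to the threshold and passed in 5 of 10 alternatives and in 3 of 9 fits that left out a tumor, between 0.00238 and 0.319. No member passed without control replicate 1 or 3 or without BPTF KD replicate 1, 2, 3 or 4, where 5 to 83 of all genes passed. Without BPTF KD replicate 5, 4 members passed, beside 620 genes.

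The other members of 67NR NSG were spread around 0, with a median of 0.00 beside 0.02 over all genes. All 4 genes of complex II lay below 0, with no call: Sdhc, a membrane anchor, read 10.33, 10.39 and 10.49 in controls and 9.66 to 10.29 in BPTF KD tumors (difference -0.38, adjusted p = 0.233). Sdhb, the iron-sulfur subunit, differed by -0.29 (adjusted p = 0.397), the other anchor Sdhd by -0.20 (adjusted p = 0.480) and the flavoprotein Sdha by -0.13 (adjusted p = 0.689). In 5 members all 6 BPTF KD tumors lay below all 3 controls and in none above, against 6.86% of genes in either direction. These were Ndufs5, Sdhc, Ndufa8 of complex I (-0.26), Uqcr11 of complex III (-0.32) and Cox5b of complex IV (-0.28). Ndufc2 of complex I (0.45, adjusted p = 0.201) and Ndufa4, first described in complex I and now placed in complex IV (0.43, adjusted p = 0.284), were the largest differences above 0.

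In 66cl4 BALB/c 61 of 84 members lay above 0, with a median difference of 0.16 beside 0.03 over all genes. The median was 0.23 for complex I subunits, 0.37 for the assembly factors, 0.20 for complex III, 0.09 for the broad forms of complex IV, 0.11 for complex V and -0.00 for complex II. Ndufa6, Ndufb3 and the assembly factor Ndufaf5 differed by 0.43, 0.48 and 0.52 (adjusted p = 0.0802, 0.0846 and 0.0744). Against this, Ndufa10 and Ndufv1 were lower. Ndufa10, an accessory subunit, read 11.18, 11.68 and 11.46 in controls and 10.50 to 11.16 in BPTF KD tumors, which did not overlap (-0.64 ± 0.15 SE, adjusted p = 0.0710). Ndufv1, the subunit that binds NADH, read 10.99, 11.62 and 11.26 against 10.22 to 11.11 (-0.70 ± 0.19 SE, adjusted p = 0.0782). In 2 members, Cox6c (0.26) and Uqcrb (0.22), all 6 BPTF KD tumors lay above the controls and in 1, Ndufa10, below, against 8.67% of genes. The count moved with single tumors, for members and for all genes. Without control replicate 1 of 66cl4 BALB/c 20 members passed, 18 up and 2 down, beside 2208 of the 12394 genes. Without BPTF KD replicate 6, 2 members passed, both down, beside 332 genes. With array weights 30 passed, 28 up and 2 down, beside 3125 of the 12394 genes.

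In 67NR BALB/c and 66cl4 NSG no member was called. The assembly factor Ndufaf4 read 11.13, 11.13 and 11.08 in 67NR BALB/c controls, with a median of 10.38 and a lowest level of 9.94 in the tumors labelled BPTF KD, all of which lay below the controls (-0.62 ± 0.23 SE, adjusted p = 0.612), and Cox7a2l 12.10, 12.11 and 12.03 against 12.12 to 12.63 (0.32, adjusted p = 0.651). Cox7a2l differed by 0.28, 0.17 and 0.14 in the other pairs, with no call. Ndufaf4 and Cox7a2l were the members without overlap in 67NR BALB/c, 1 in each direction, against 5.96% of genes. In 66cl4 NSG it was Cox8c alone, which read at most 7.09 in the 3 controls and 7.26 to 7.52 in BPTF KD tumors (0.34 ± 0.09 SE, adjusted p = 0.551), against 4.37% of genes. The median over the 84 members was -0.00 in 67NR BALB/c and -0.02 in 66cl4 NSG.

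**Figure D3:**
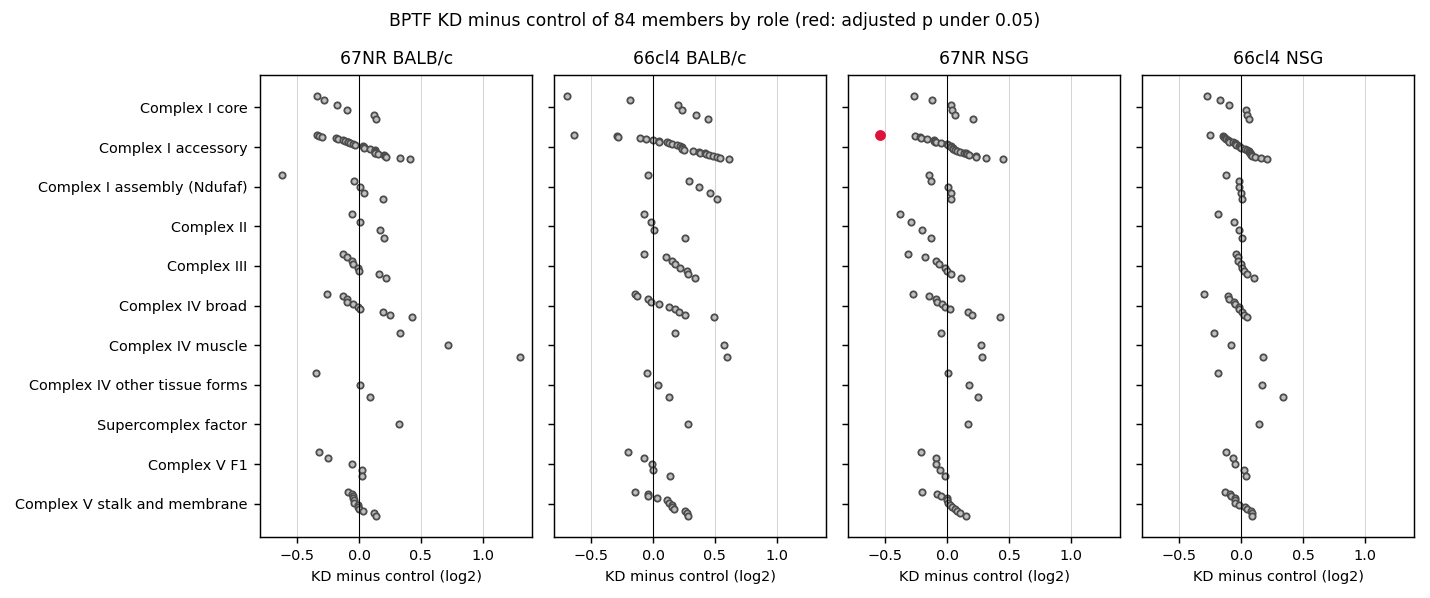
Log2 difference, BPTF KD minus control, of the 84 members (x axis) by their role in the chain (y axis), in the 4 pairs of line and host. Each point is a gene, red where the adjusted p was below 0.05, which holds for Ndufs5 in 67NR NSG. In 66cl4 BALB/c 25 of 33 complex I subunits, 7 of 8 of complex III and 11 of 17 of complex V lie to the right of 0, with Ndufv1 (-0.70) and Ndufa10 (-0.64) farthest to the left.

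Differences of the BPTF KD effect were tested between hosts and between lines. No member passed in any of the 4 tests by limma. Between hosts none of all genes passed either (0% in 67NR and 0% in 66cl4), and 3 and 8 members had an unadjusted p below 0.05, against 6.89% and 11.9% of genes. Between lines 0% of genes passed in BALB/c and 0.960% in NSG, and 6 and 3 members were below 0.05 unadjusted, against 9.64% and 10.1%. Beside Ndufs5, the smallest p values belonged to Ndufaf5, whose effect in 66cl4 was 0.63 ± 0.18 (SE) higher in BALB/c (adjusted p = 0.323), and Ndufaf4, whose effect in BALB/c was lower in 67NR (-0.91 ± 0.27, adjusted p = 0.485).

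A measure of RNA quality went with the levels of many members within groups. The index averaged, over the control probe sets for actin and for Gapdh, the level at the 3′ end minus that at the 5′ end, which is larger where RNA is degraded. It was 0.47 to 0.82 in 66cl4 BALB/c controls (median 0.72) and 0.72 to 0.885 in BPTF KD tumors (median 0.785), and 0.46 to 0.54 in 67NR NSG controls (median 0.465) and 0.41 to 0.81 in BPTF KD tumors (median 0.655). Its medians were 0.785 and 0.768 in 67NR BALB/c, and in 66cl4 NSG 0.625 and 0.638. Within groups the mean of the 81 members outside the muscle forms went with the index at r = 0.51 (rho = 0.44, 36 tumors), and at 0.46 without 67NR BALB/c BPTF KD replicate 1 and 67NR NSG BPTF KD replicate 5, the tumors of the most extreme index. For the mean of complex V it was 0.68, for complex III 0.64, for complex II -0.47 and for the muscle forms 0.01. Both values come from the same array.

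Single members ran from r = -0.80 for Ndufa8 to r = 0.84 for Ndufa4, with 56 positive and 28 negative. An r above 0.4, a limit chosen after the values were seen, held for 41 members (48.8%, against 22.2% of all genes), and an r below -0.4 for 18 (21.4%, against 20.3%). The signs of the BPTF KD differences were then counted in these classes, beside the share of all genes of the same class above 0. In 66cl4 BALB/c all 41 members of the former lay above 0 (median 0.26, against 90.5% of genes) and 3 of the 18 (against 9.30%). In 67NR NSG 31 of 41 (against 79.0%) and 4 of 18 (against 18.7%) lay above 0. The median index hardly differed by label in the other pairs. There 15 of 41 (against 48.5%) and 11 of 18 (against 38.8%) lay above 0 in 67NR BALB/c, and 26 of 41 (against 57.5%) and 2 of 18 (against 32.4%) in 66cl4 NSG. Ndufs5 had an r of -0.59, Sdhc of -0.72, Ndufa10 of -0.77 and Ndufv1 of -0.64. No member passed in any pair with the index as a covariate, where the difference of Ndufs5 in 67NR NSG was -0.49 (adjusted p = 0.0920) in place of -0.54. The part of RNA quality in the BPTF KD differences was not tested beyond that fit.

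**Figure D4:**
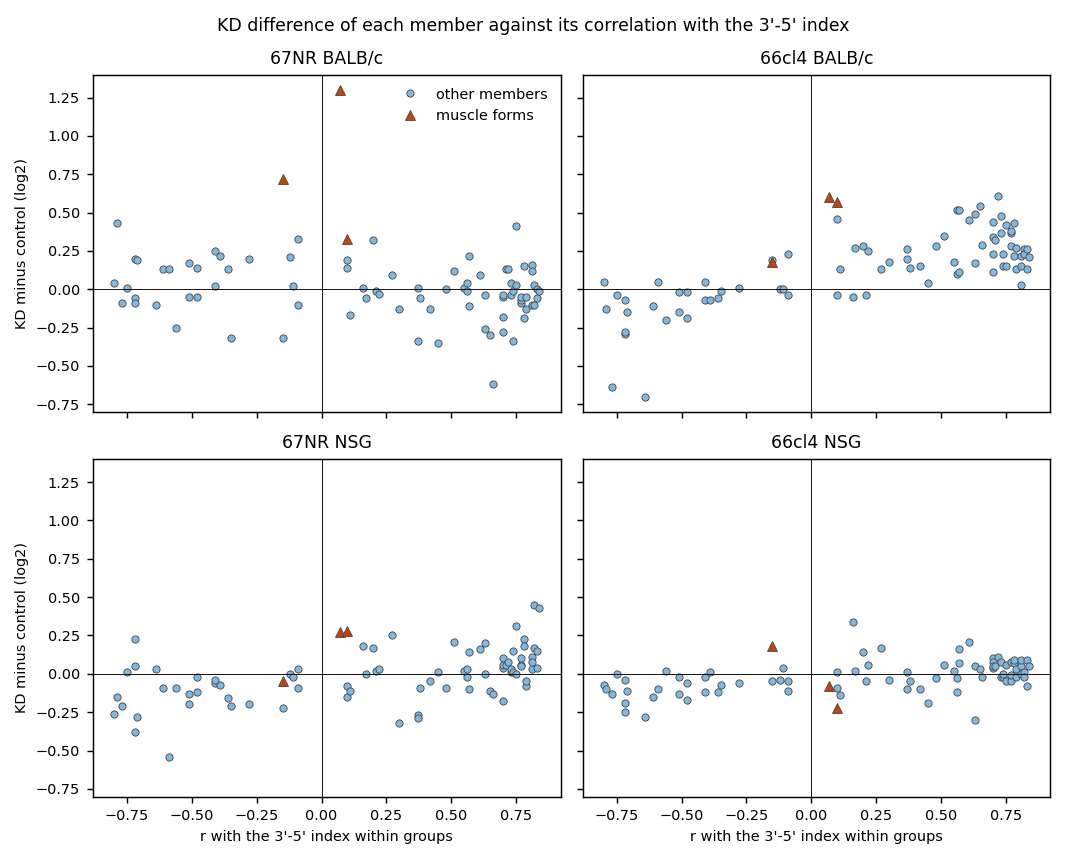
BPTF KD minus control difference of each of the 84 members (y axis, log2) against the correlation of its level with the 3′ minus 5′ index within groups (x axis), in the 4 pairs of line and host. In 66cl4 BALB/c the points rise from lower left to upper right, with all 41 members of r above 0.4 above 0. Of these 41, 31 lie above 0 in 67NR NSG, 26 in 66cl4 NSG and 15 in 67NR BALB/c.

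Members also moved together within groups. The median r over pairs of the 81 members was 0.26, and 0.04 between members and other genes. It was 0.50 among the assembly factors, 0.40 in complex III, 0.33 among complex I subunits, 0.14 in complex V, 0.12 in complex II and 0.00 among the broad forms of complex IV. The muscle forms had a median r of 0.70 with each other and 0.05 with the other members. The mean of the 81 members followed that of 74 genes of the mitochondrial ribosome at r = 0.94 (rho = 0.95, 36 tumors of deviations from group means). Both means come from the same arrays. Both also went with the 3′ minus 5′ index within groups, at r = 0.51 for the 81 members and r = 0.47 for the ribosome genes. The part of RNA quality in these correlations was not tested.

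Between the tumor lines many single subunits differed, some up and others down, and the shares called were near those of all genes. In BALB/c 10 of 84 were higher and 15 lower in 67NR than in 66cl4, 25 in all, against 28.0% of all genes (13.4% higher and 14.6% lower). In NSG 17 were higher and 30 lower, 47 in all, against 52.8% of all genes (24.9% higher and 27.9% lower). The tumors of the hosts are separate animals. In both hosts 18 members were called, 72.0% of the BALB/c list and 38.3% of the NSG list, each in the same direction in both. For all genes the shares were 75.7% and 40.1%, with 2508 of 2624 in the same direction. With the tumors labelled BPTF KD alone 7 members passed in BALB/c, and with control tumors alone 30 passed in NSG. These fits hold fewer tumors, and their shares of all genes are not given here, so the counts are not read as particular to the members.

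In complex I the clearest difference was Ndufb8, an accessory subunit of the membrane arm. In BALB/c 67NR controls read 11.73, 11.82 and 11.88 and 66cl4 controls 12.81, 12.84 and 12.99, with BPTF KD tumors at 11.41 to 12.27 and 12.53 to 12.98. In NSG controls lay at 11.80 to 12.06 and 12.81 to 12.98, and BPTF KD tumors at 11.57 to 12.02 and 12.51 to 13.12. The lines did not overlap in any of the 36 tumors. The difference was -0.91 ± 0.10 (SE) in BALB/c (adjusted p = 4.21e-06) and -0.92 ± 0.09 in NSG (adjusted p = 5.34e-08). Ndufs1, the largest core subunit with iron-sulfur clusters, was also lower in 67NR (differences -0.50 and -0.72, adjusted p = 0.00231 and 2.07e-07), and the membrane arm subunit Ndufc2 likewise (-0.57 in both hosts). In BALB/c Ndufc2 lost the call with control tumors alone (-0.43, adjusted p = 0.0680) and with BPTF KD tumors alone (-0.63, adjusted p = 0.112).

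Other complex I genes ran the opposite way. Ndufa12, an accessory subunit, read 12.85, 12.88 and 12.67 in 67NR BALB/c controls and 11.81, 11.67 and 11.42 in 66cl4 BALB/c controls, and the differences were 0.83 ± 0.13 (SE) in BALB/c and 0.70 ± 0.08 in NSG (adjusted p = 0.000135 and 1.23e-06). The gene was read from a probe set that can bind related transcripts, and another 2 of that kind gave 0.77 and 0.86 in BALB/c, while the dim gene-specific probe set (mean level 4.26) gave 0.22 (adjusted p = 0.297). In NSG all 9 67NR tumors lay above all 9 of 66cl4. Ndufb10 (0.43 and 0.67) and Ndufb9 (0.31 and 0.41) were higher in 67NR in both hosts too, though in BALB/c Ndufb10 lost its call without each of 8 of the 18 tumors in turn (adjusted p up to 0.0614, without 66cl4 BALB/c BPTF KD replicate 2). Ndufs4 passed in BALB/c (0.73, adjusted p = 0.00936, and 0.45 with an adjusted p of 0.221 in the tumors labelled BPTF KD alone), and Ndufv1 (0.81), Ndufa10 (0.74) and, lower, Ndufa5 (-0.73) in NSG. Control tumors alone gave 0.61 for Ndufv1 in NSG (adjusted p = 0.125). Of the assembly factors, Ndufaf1 was lower in 67NR, at 8.02 to 8.93 against 9.55 to 10.00 in NSG without overlap (-1.23 ± 0.10 SE, adjusted p = 6.61e-09) and at 8.12 to 9.02 against 8.82 to 9.67 in BALB/c (-0.73 ± 0.13, adjusted p = 0.000314), where control tumors alone gave -0.45 (adjusted p = 0.105). Ndufaf7 was higher (0.33 and 0.55).

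In complex V, the subunits of the peripheral stalk, which holds the catalytic head against rotation, were all lower in 67NR. They are Atp5pb (subunit b), Atp5h (d), Atp5j (F6) and Atp5o (OSCP), a group put together after its values were seen. In BALB/c they differed by -0.32, -0.40, -0.43 and -0.30 (adjusted p = 0.00789, 0.00365, 0.00738 and 0.0232). In NSG they differed by -0.47, -0.61, -0.72 and -0.38 (adjusted p = 1.04e-05, 1.71e-07, 1.37e-05 and 0.000138), and in each all 9 67NR tumors lay below all 9 of 66cl4. Atp5h, for example, read 12.92, 13.01 and 13.01 in 67NR NSG controls and 13.73, 13.50 and 13.44 in 66cl4 NSG controls. Atp5a1, the alpha subunit of the catalytic head, was lower as well (-0.37 and -0.18), while Atp5d, the delta subunit of the central stalk, was higher, at 12.87 to 13.06 against 12.06 to 12.42 in NSG (0.42 ± 0.13 SE in BALB/c, adjusted p = 0.0225, and 0.68 ± 0.06 in NSG, adjusted p = 1.45e-08). The tumors labelled BPTF KD alone gave 0.40 for Atp5d in BALB/c (adjusted p = 0.173). In NSG 4 genes of complex V were higher and 8 lower of 17, and in BALB/c 1 and 5. The index of RNA quality was 0.46 to 0.54 in 67NR NSG controls and 0.615 to 0.69 in those of 66cl4. Its medians in BPTF KD tumors were 0.655 and 0.638. Within groups its r was 0.70 for Atp5pb, 0.63 for Atp5h, 0.75 for Atp5j, 0.10 for Atp5o and -0.56 for Atp5d. For Ndufb8, lower in 67NR, it was -0.61. With the index as a covariate Atp5j, Atp5d and Ndufb8 kept their calls in NSG. The part of RNA quality in the line differences was not tested beyond that fit.

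Complexes II, III and IV (broad forms) held fewer calls in number, but are smaller sets. They have 4, 8 and 10 genes, beside 33 subunits of complex I and 17 of complex V, and shares were not compared between complexes. Sdha was lower in 67NR in both hosts (-0.28 ± 0.06 SE in BALB/c, adjusted p = 0.00200, and -0.17 ± 0.07 in NSG, adjusted p = 0.0398), reading 10.85, 10.73 and 10.84 in 67NR BALB/c controls and 11.21, 11.29 and 11.14 in those of 66cl4. In NSG it lost the call without each of 9 of the 18 tumors in turn (adjusted p up to 0.0757, without 67NR NSG control replicate 3). Sdhb was lower in NSG (-0.38 ± 0.09 SE, adjusted p = 0.00122) and differed by 0.01 in BALB/c. With control tumors alone the NSG differences were -0.18 for Sdhb (adjusted p = 0.229) and -0.10 for Sdha (adjusted p = 0.572). The tumors labelled BPTF KD alone gave -0.22 for Sdha in BALB/c (adjusted p = 0.0928). Sdhc and Sdhd passed in neither host. In complex III, Uqcrq (0.44) and Uqcr10 (0.43) were higher and Uqcrc1 (-0.25) lower in BALB/c, and Uqcrb (-0.23) and Uqcrh (-0.19) lower in NSG. The tumors labelled BPTF KD alone gave 0.35 for Uqcrq (adjusted p = 0.108) and 0.30 for Uqcr10 (adjusted p = 0.162) in BALB/c. In complex IV, Cox5a was higher (0.21 and 0.27) and Ndufa4 lower (-0.66 and -0.56) in both hosts. Ndufa4 lost the BALB/c call with control tumors alone (-0.51, adjusted p = 0.0642) and with BPTF KD tumors alone (-0.73, adjusted p = 0.0780). Among called members with several probe sets, all probe sets had the same sign in 13 of 13 in BALB/c and 23 of 25 in NSG.

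Lists of neighbouring functions were counted between lines too, to be read beside the 13.4% of all genes higher and 14.6% lower in 67NR in BALB/c and the 24.9% and 27.9% in NSG. Of 74 mitochondrial ribosome genes, 5 were higher and 16 lower in 67NR in BALB/c, and 14 and 31 in NSG. Of 22 genes of glycolysis and hypoxia, 1 was higher and 8 lower in BALB/c, and 14 and 5 in NSG. Of 16 genes of the TCA cycle, 2 and 4 were called in BALB/c and 8 and 5 in NSG. Of 23 assembly factors outside the rule, 3 and 2 passed in BALB/c and 4 and 6 in NSG, among them Cox16 (-1.69 and -2.16), Sdhaf4 (-2.02 and -1.94) and Cox18 (0.90 and 1.09). As a check of cell type, the epithelial keratin Krt8 was at 12.64 to 13.48 in 66cl4 and 5.65 to 9.22 in 67NR tumors, and Epcam and Cdh1 were at or below 8.73 and 6.76 in both. The mean of all 11 epithelial markers lay closer between the lines than Krt8. In NSG it was 6.86 in 66cl4 and 5.55 in 67NR controls, and 6.36 and 6.09 in BPTF KD tumors. In BALB/c it was 6.26 and 5.22 in controls, and 6.24 and 5.85 in tumors labelled BPTF KD.

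The host comparison set tumors in immune-competent BALB/c mice against tumors in NSG mice, which have no lymphocytes. The hosts also differ in strain background, so that strain and the lack of lymphocytes cannot be told apart. In 67NR 5 were higher and 3 lower in BALB/c than in NSG, 8 of 84, against 24.1% of all genes (13.3% higher and 10.8% lower). In 66cl4 7 were higher and 8 lower, 15 of 84, against 26.0% of all genes (13.2% higher and 12.9% lower). Of these, 3 passed in both lines, 37.5% of the 67NR list and 20.0% of the 66cl4 list, in the same direction in both lines. For all genes the shares were 34.3% and 31.8%, with 853 of 1025 in the same direction. With control tumors alone 2 members passed in 67NR and 0 in 66cl4, and with the tumors labelled BPTF KD alone 2 and 5. The shares of all genes in these smaller fits are not given here, so their counts are not read as particular to the members. The counts moved with single tumors. Without 67NR NSG control replicate 2, BPTF KD replicate 3 or BPTF KD replicate 5, 5 members passed in 67NR, beside 2690, 2531 and 2745 of all genes. Without 66cl4 NSG BPTF KD replicate 5, 30 members passed in 66cl4, beside 4270 of the 12394 genes.

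Ndufs5 was higher in BALB/c. In 67NR controls read 10.72 to 10.81 in BALB/c and 10.50 to 10.73 in NSG, and BPTF KD tumors 10.39 to 11.43 and 9.84 to 10.14. In 66cl4 controls read 10.37 to 10.81 and 10.23 to 10.46, and BPTF KD tumors 10.46 to 10.99 and 10.07 to 10.48. In each line 7 of 9 BALB/c tumors lay above every NSG tumor, and the differences were 0.64 ± 0.13 (SE) and 0.41 ± 0.08 (adjusted p = 0.00157 in both). With control tumors alone they were 0.19 in 67NR (adjusted p = 0.289) and 0.32 in 66cl4 (adjusted p = 0.204).

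Cox7a2l and Atp5g2, a gene for the c subunit of the proton ring, were lower in BALB/c in both lines. Cox7a2l read 12.03 to 12.11 in 67NR BALB/c controls against 12.51 to 12.74 in 67NR NSG controls, and differed by -0.41 in 67NR and -0.22 in 66cl4 (adjusted p = 0.00232 and 0.0421). Atp5g2 differed by -0.35 and -0.27 (adjusted p = 0.0359 and 0.0126), and in 67NR it lost the call without each of 10 of the 18 tumors in turn (adjusted p up to 0.0686, without 67NR NSG BPTF KD replicate 1). The index of RNA quality was higher in 67NR BALB/c controls (0.77 to 0.865) than in 67NR NSG controls (0.46 to 0.54). Within groups the r of these genes with the index was -0.59 for Ndufs5, 0.20 for Cox7a2l and 0.83 for Atp5g2. The part of RNA quality in the host differences was not tested beyond the fit with the index as a covariate. In that fit 18 members passed in 67NR and 40 in 66cl4. The share of all genes in that fit is not given here, so these counts are not read as particular to the members.

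In 67NR the assembly factor Ndufaf3 (0.59), Uqcr10 of complex III (0.48), and Cox6b1 (0.29) and Cox6a1 (0.23) of complex IV were also higher in BALB/c, and Cox4i1 (-0.24) of complex IV lower. With the index as a covariate Uqcr10 (0.27, adjusted p = 0.0639), Cox6b1 (0.15, adjusted p = 0.253) and Cox4i1 (-0.17, adjusted p = 0.182) lost the call, and with control tumors alone Ndufaf3 did (0.36, adjusted p = 0.124). Cox6b1, Cox6a1 and Cox4i1 were close to the threshold and lost the call without single tumors, with adjusted p up to 0.0601 for Cox6b1 (without 67NR NSG BPTF KD replicate 5), 0.0551 for Cox6a1 (without 67NR NSG control replicate 2) and 0.0908 for Cox4i1 (without 67NR NSG control replicate 2). In 66cl4 the largest differences were the muscle forms Cox8b and Cox6a2 given above. Ndufv3 (0.47), Cox5b (0.31), Cox8a (0.31) and Atp5d (0.25) were higher too, and Cox7c (-0.71), Ndufaf1 (-0.42), Ndufaf4 (-0.42), Ndufs4 (-0.36), Ndufc2 (-0.27) and Ndufb11 (-0.23) lower. Ndufs4 lost the call without each of 5 of the 18 tumors in turn (adjusted p up to 0.0569, without 66cl4 NSG control replicate 1). Cox7c, a small subunit of complex IV, read 6.64 to 7.71 in BALB/c controls and 8.25, 8.16 and 8.65 in NSG controls, and its BPTF KD tumors ran from 7.10 to 8.04 and from 7.71 to 8.46, with overlap (adjusted p = 0.00572). The difference was -1.24 in control tumors alone (adjusted p = 0.0584) and -0.44 in BPTF KD tumors alone (adjusted p = 0.101). It was read from a probe set that can bind related transcripts, and its r with the index was 0.63. No gene of complex II passed between hosts in either line. T cell markers, which NSG hosts should lack, were higher in BALB/c for 13 of 13 genes in 67NR and 11 of 13 in 66cl4.

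The list of mitochondrially encoded subunits had 1 gene on the arrays, ND5 of complex I. It was lower in BALB/c than in NSG in 67NR (-0.69, adjusted p = 0.0117), while the nuclear complex I subunits of 67NR had a median difference of 0.05 with 1 call of 33. In 66cl4 ND5 differed by 0.21 without a call. Between lines it differed by -0.45 in BALB/c (adjusted p = 0.0909) and was higher in 67NR in NSG (0.46, adjusted p = 0.00551). With BPTF KD it differed by 0.03 to 0.51 and passed in no pair.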

How the data were processed

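RNA of 36 tumors was hybridised to Affymetrix mouse arrays. Necrotic tissue had been removed and total RNA extracted from frozen tumor. The values deposited by the authors are on the log2 scale, summarized and normalized with RMA, named without a version in the submitters' processing notes. Of 22690 probe sets, none with a missing value, 20393 came with 1 gene symbol, 691 with several and 1606 with none. Current RefSeq symbols were looked up by Entrez ID (20364 matched), and each of 12394 genes was read from the brightest probe set with 1 symbol. Of the 84 members, 45 had more than 1 probe set and 19 were read from sets ending in _x_at or _s_at, which can bind related transcripts. The symbols Ndufa11, Ndufa11b, Ndufab1-ps, Ndufb4, Ndufb4b, Ndufb4c, Ndufs5-ps, Ndufs6 and Ndufs6b stood only on shared probe sets and were left out.

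Groups came from the sample labels. Each comparison was fitted across all genes with limma 3.58.1 in R 4.3.3 (lmFit and eBayes, two-sided), p-values were adjusted by Benjamini-Hochberg over the 12394 genes, and 0.05 was the threshold: BPTF KD against control in each of 4 pairs of line and host, lines within a host and hosts within a line over 18 tumors with the label as covariate, and interactions over 18 tumors. The study's methods name a t-test, which was run as an alternative beside 1 fit of all tumors, other normalizations, other choices of probe set, array weights, the RNA index as covariate, control or BPTF KD tumors alone, the replicate block, and each tumor left out. Genes singled out with a test were the muscle forms and their partners, the complex II genes and, in each comparison, up to the 6 largest differences per direction past the threshold or, where none passed, the 3 of smallest p. The members and lists were chosen with earlier results of these data known. The lists were also counted for fatty acid oxidation, biogenesis regulators, partners of the chain, proliferation, macrophages, fibroblasts and brown fat. The number of arrays limits the precision. Tables and figures used matplotlib 3.10.9, pandas 2.3.3, scipy 1.17.1 and numpy 2.4.6 in Python 3.11.15, and the fit was tested on simulated data.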

Additional observations from a re-analysis of the deposited data

Results flagged for a closer look

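Levels were screened for a tumor that stands apart from the others of its group of 6, over 19 measures and 76 groups, by the gap to the nearest tumor divided by the range (Dixon's test). It picked 13, and chance picks about 1 in 20 groups. No explanation was tested.

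Among the muscle forms, Cox6a2 read 10.16 in 67NR BALB/c BPTF KD replicate 3, with the other 5 at 6.65 to 7.28, and the mean of the 3 forms was 9.45 there against 6.05 to 7.19. In 66cl4 NSG BPTF KD replicate 4, Cox8b read 7.66 against 6.24 to 6.74 and the mean of the forms 7.27 against 6.54 to 6.78. Cox6a2 read 6.86 in 67NR NSG BPTF KD replicate 6, against 6.33 to 6.51.

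In 67NR BALB/c BPTF KD replicate 1, the tumor of the highest 3′ minus 5′ index (1.315), Cox8a read 11.34 against 12.18 to 12.61 and Sdhc 9.33 against 10.09 to 10.47. In 66cl4 NSG BPTF KD replicate 5, the means of complexes III, IV (broad forms) and V were all low, at 12.05 against 12.27 to 12.37, 12.56 against 12.65 to 12.69, and 12.72 against 12.83 to 12.90. The mean of complex I subunits was 11.40 in 67NR NSG BPTF KD replicate 5, against 11.66 to 11.81. In 66cl4 BALB/c, Cox6a1 read 13.99 in BPTF KD replicate 5, against 14.09 to 14.14, and Sdha 10.99 in BPTF KD replicate 4, against 11.21 to 11.27.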

How the results depend on the processing

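No result reversed its direction under any alternative. Over the genes singled out, 2236 of 2414 values under alternatives kept their direction and side of the threshold, 142 lost and 36 gained a call. Where a count of members moved by more than 1.5 times, the cause was not tested. Counts of all genes are not given beside those below, so the member counts are not read as particular to the chain. Array weights called 2, 30, 4 and 3 members with BPTF KD in 67NR BALB/c, 66cl4 BALB/c, 67NR NSG and 66cl4 NSG, 8 and 3 in the host interactions of 67NR and 66cl4, 22 and 3 in the line interactions of BALB/c and NSG, and 14 and 23 between hosts in 67NR and 66cl4. With BPTF KD in 67NR NSG, the fit of all 36 tumors, array medians subtracted, the RNA index as covariate and the methods' t-test called 0 members each. Between lines, BPTF KD tumors alone gave 7 in BALB/c and control tumors alone 30 in NSG. Between hosts in 67NR, the fit of all tumors gave 17, array medians 5, the RNA index 18, and control or BPTF KD tumors alone 2 each. In 66cl4 these gave 7 for the fit of all tumors, 40 for the RNA index, 0 for control and 5 for BPTF KD tumors alone. The split of calls moved with the scaling between hosts: in 66cl4 quantile normalization gave 12 higher and 7 lower and array medians 6 and 11, and in 67NR 3 and 3 and 4 and 1. Leaving out each tumor in turn gave 0 to 0, 0 to 20, 0 to 4 and 0 to 0 members with BPTF KD in the order above, 20 to 32 and 42 to 50 between lines in BALB/c and NSG, 5 to 12 and 13 to 30 between hosts in 67NR and 66cl4, and 0 to 0 in each interaction.

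Replicate numbers did not pair the samples: deviations of same-numbered tumors from their group means correlated at -0.451 to 0.268. With the replicate block 2 members were called in 67NR NSG, both up, and the other BPTF KD counts stayed at 0. The precision is limited by 3 control tumors in each group.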

Other observations

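Few genes of any kind were called with BPTF KD: 0% in 67NR BALB/c, 0.186% in 66cl4 BALB/c, 1.14% in 67NR NSG and 0% in 66cl4 NSG. At these shares, the lack of a call in the short lists below is not read as a result about them. None of 14 regulators of mitochondrial biogenesis, 17 partners such as cytochrome c and adenine nucleotide carriers, 14 genes of fatty acid oxidation or 16 of the TCA cycle passed in any pair of line and host. Between lines, 2 biogenesis regulators were higher and 1 lower in 67NR in BALB/c and 4 and 3 in NSG, 3 and 5 partners passed in BALB/c and 8 and 5 in NSG, and 1 and 5 genes of fatty acid oxidation in BALB/c and 2 and 6 in NSG. Between hosts, 14 of 22 genes of glycolysis and hypoxia were lower in BALB/c than in NSG in 67NR (median difference -0.68) and 1 higher, while in 66cl4 7 were higher and 1 lower (median 0.10). Proliferation genes lay below 0 with BPTF KD in 17 of 17 in 67NR BALB/c (median -0.48) and 16 of 17 in 67NR NSG (median -0.35), with no call. Macrophage markers were lower in 67NR than in 66cl4 for 6 of 12 in BALB/c and 9 of 12 in NSG. Fibroblast markers were higher in 67NR for 8 of 12 in NSG. In BALB/c their mean was 9.07 in 67NR and 9.63 in 66cl4 controls, and 9.76 and 9.68 in tumors labelled BPTF KD. Of 5 brown fat markers, 1 was lower in 67NR in BALB/c and 2 in NSG. Of all genes, 13.4% were higher and 14.6% lower in 67NR in BALB/c, and 24.9% and 27.9% in NSG. Between hosts 13.3% were higher and 10.8% lower in BALB/c in 67NR, and 13.2% and 12.9% in 66cl4.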
